A study of Mus musculus with 12 samples.

Results

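Solute carriers are membrane proteins that move amino acids, sugars, metals, nucleosides, vitamins and ions into and out of cells and between organelles, and their gene symbols begin with Slc. The genes described here are the protein-coding mouse genes of this name with a mean TPM (transcript abundance per length, scaled to a common total) of 1 or more over all libraries, leaving out 10 named genes (Slc2a1, Slc6a9, Slc7a2, Slc7a11, Slc11a1, Slc11a2, Slc16a3, Slc30a1, Slc39a14 and Slc40a1). The rule gave 171 genes of 361 Slc genes at any level, and 55335 genes were listed in all. The genes closest below the limit were Slc2a9 at 0.989, Slc35g1 at 0.960 and Slc18a1 at 0.904 mean TPM, and those closest above it were Slc16a9 at 1.04, Slc25a15 at 1.17 and Slc17a9 at 1.19 mean TPM. Slc7a6os, Slc9a3r1, Slc9a3r2 and Slc4a1ap carry the name of a carrier but are not transporters, and they were kept as a group of their own of 4 genes.

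The libraries were bulk RNA-seq of BMDC, mouse dendritic cells grown from C57BL/6 bone marrow with GM-CSF for 6 days with new medium every 2 days. In every group the cells carried CreER, a tamoxifen-inducible Cre driven from the Rosa26 locus, with an intact Ctcf gene. The 4 groups held 3 libraries each and were untreated cells (WT), cells given lipopolysaccharide (LPS, a bacterial outer membrane component) at 100 ng/ml for 3 h (WTL), cells given JSH-23 at 100 µM for 3 h (WT + JSH23) and cells given JSH-23 before LPS (WTL + JSH23). JSH-23 is a small molecule that keeps the NF-κB subunit RelA out of the nucleus, and the comparisons ask how these genes answered to LPS, to JSH-23 and to both. The study describes selection of CD11c+ cells, and its animals were adult mice of both sexes, and the solvent given to cells without JSH-23 was not given in the sources used here. Replicates were numbered 4 to 6 in WT and WTL and 1 to 3 in the JSH-23 groups, so any difference between those sets of libraries and the effect of JSH-23 cannot be told apart.

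Total expected counts per library ran from 24664724 to 34837847. WTL + JSH23 replicate 3 stood apart, with a chi-square per gene of 8.19 and 9.12 against its own replicates, while all other replicate pairs had 2.32 to 4.50. Dendritic cell markers were all detected, and their summed level was 17824 to 18133 CPM (counts scaled to a common library size) in WT, 21124 to 22328 in WTL, 16964 to 17428 in WT + JSH23 and 18745 to 20331 in WTL + JSH23. The summed level of 12 macrophage markers was 3495 to 3690 CPM in WT, 4480 to 4574 in WTL, 2763 to 2769 in WT + JSH23 and 3377 to 3471 in WTL + JSH23. Neutrophil markers summed to 63.5 to 86.3 CPM, mast cell and basophil markers to 4.42 to 8.91 CPM and lymphocyte markers to 0.36 to 1.17 CPM, with Cd3e under 0.1 CPM on average in every group. The part of these shifts in the results below was not tested, and in bulk RNA fewer cells of a type and less RNA per cell cannot be told apart.

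Transporters handle both supply and signalling in dendritic cells. Plasma membrane carriers bring in the amino acids and sugars that activated cells burn and build with. Lysosomal carriers export the products of degraded proteins and nucleic acids, and some of them, such as Slc38a9, report amino acid content to the mTORC1 kinase. Others set the zinc, copper, iron and heme available to the cell.

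The 171 genes together took 0.623% to 0.633% of the TPM in WT, 0.575% to 0.598% in WTL, 0.653% to 0.675% in WT + JSH23 and 0.648% to 0.689% in WTL + JSH23. The WTL libraries were the lowest and did not overlap any other group. A few genes carried much of this sum. By mean TPM, which corrects for length, Slc3a2 (CD98, the heavy chain shared by several amino acid exchangers) had the highest mean over all 12 libraries with 571, followed by Slc2a6 (a hexose transporter of lysosomes) with 544 and Slc15a3 (a lysosomal peptide and histidine transporter) with 500. The order differed between groups. In all 6 libraries without JSH-23, Slc2a6 (501 to 514 TPM in WT and 733 to 794 in WTL) was above Slc3a2 (386 to 404 and 466 to 485), and in WTL Slc15a3 (526 to 535) was above it too. The 10 most abundant genes held 49.2% of the summed TPM of the group. The median gene stood at 14.2 TPM, 11 genes reached 100 TPM and 40 were below 5 TPM.

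A gene was called when edgeR's quasi-likelihood test gave an adjusted p under 0.05 with over 2-fold change. All 171 genes passed the filter on low counts. With LPS, 11 of them rose (6.43%) and 20 fell (11.7%), against 7.36% and 9.09% of all 14357 genes tested. After JSH-23, LPS raised 9 (5.26%) and lowered 5 (2.92%), against 5.85% and 4.49%. Under LPS, JSH-23 raised 13 (7.60%) and lowered 4 (2.34%), against 3.75% and 3.25%. Without LPS, it raised 7 (4.09%) and lowered 3 (1.75%), against 2.43% and 2.94%. The interaction, the difference between the LPS log2 changes after and without JSH-23, was called at an adjusted p under 0.05 alone and was positive for 33 (19.3%) and negative for 11 (6.43%), against 9.54% and 8.44%. With DESeq2 the split was 28 positive and 15 negative, and with a block for replicate number in edgeR it was 34 and 16. The shares of all genes called by these 2 fits were not counted. The median log2 fold change of the 171 was -0.15 with LPS and 0.11 with JSH-23 under LPS, beside -0.05 and 0.02 over all genes tested. On the TPM scale, limma on log2(TPM + 1) moved the median LPS change of all genes to -0.26, beside -0.42 for the 171. The median interaction of all genes moved from 0.03 to 0.11, beside 0.18 for the 171. Medians of all genes and of the 171 were -0.16 and -0.27 for LPS after JSH-23. They were 0.10 and 0.22 for JSH-23 under LPS. Called Slc genes in this fit were 5 higher and 21 lower for LPS, and 4 and 5 for LPS after JSH-23. They were 11 and 1 for JSH-23 under LPS, and 33 positive and 2 negative for the interaction. The share of all genes called by this fit was not counted, so these splits have no background to compare with. In total 62 of the 171 genes were called in at least 1 of the 5 comparisons and 109 in none. The matching share of all genes tested was not counted.

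**Figure D1:**
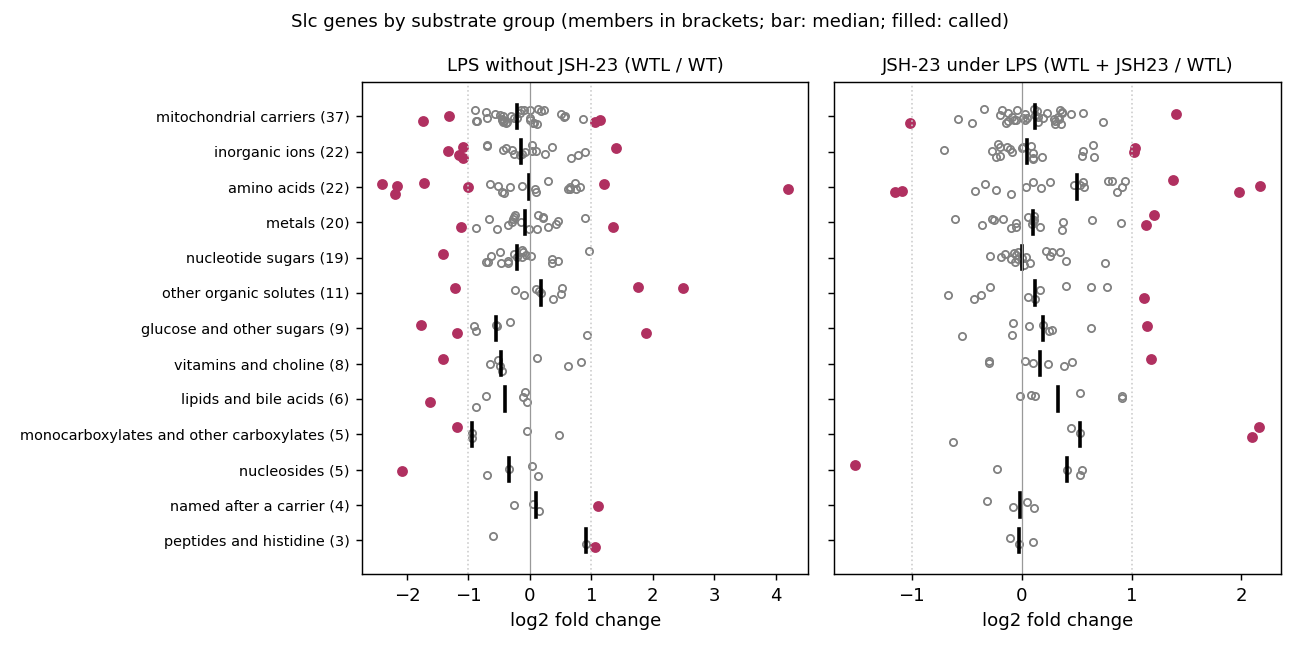
Log2 fold changes of the 171 Slc genes by substrate group, with LPS (left) and with JSH-23 under LPS (right). Each point is a gene, filled points passed an adjusted p under 0.05 and 2-fold, and bars are group medians; amino acid transporters hold 5 falls and 2 rises with LPS, and their median with JSH-23 under LPS is 0.50.

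The gene with the largest LPS rise was Slc1a2, a sodium-coupled glutamate transporter. Its CPM were 1.31, 2.05 and 1.07 in WT, 29.02, 29.3 and 24.7 in WTL, 1.17, 1.19 and 1.53 in WT + JSH23 and 12.1, 12.7 and 14.3 in WTL + JSH23. It was at or below 2.05 CPM in all libraries without LPS, and the 3 WTL libraries were above the 3 WTL + JSH23 libraries. LPS raised it by 4.20 ± 0.13 on the log2 scale (SE, adjusted p = 7e-17, 18.4-fold) without JSH-23 and by 3.32 ± 0.15 after it (adjusted p = 8.1e-14). The interaction was -0.88 ± 0.25 (adjusted p = 0.017), and it missed the threshold when WT replicate 4, WT replicate 6 or WT + JSH23 replicate 3 was left out, with adjusted p up to 0.088, and with limma on log2(TPM + 0.1) (0.143). 

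Other strong rises came from neighbouring genes. Slc22a5 and Slc22a21, transporters of the carnitine that carries fatty acids into mitochondria, lie next to Slc22a4, an ergothioneine transporter, on chromosome 11 between 53864542 and 54028090 (mm10). Slc22a21 had CPM of 6.18, 5.32 and 6.11 in WT, 32.9, 33.7 and 32.4 in WTL, 6.33, 5.72 and 5.89 in WT + JSH23 and 24.1, 26.3 and 23.1 in WTL + JSH23. Slc22a5 had CPM of 14.7, 14.7 and 13.6 in WT, 49.7, 48.7 and 47.2 in WTL, 11.6, 10.8 and 11.9 in WT + JSH23 and 38.3, 36.1 and 37.98 in WTL + JSH23. Both were higher in every library with LPS, by 2.50 ± 0.07 and 1.76 ± 0.05 without JSH-23, and by 2.03 ± 0.07 and 1.71 ± 0.06 after it. Slc22a4 had CPM of 26.7, 24.4 and 25.9 in WT, 28.6, 25.1 and 28.8 in WTL, 49.8, 49.7 and 53.3 in WT + JSH23 and 45.7, 43.1 and 51.8 in WTL + JSH23. It changed by 0.09 with LPS (adjusted p = 0.24), and was higher with JSH-23 by 0.99 ± 0.06 (adjusted p = 5.4e-11), just under 2-fold. Slc22a5 and Slc22a21 had fractional counts in all 12 libraries, so reads were divided between genes and the value of each is uncertain.

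Slc5a3, a sodium-coupled myo-inositol transporter, had CPM of 5.57, 6.17 and 6.11 in WT, 24.7, 21.4 and 20.3 in WTL, 9.07, 8.90 and 9.26 in WT + JSH23 and 22.1, 21.6 and 18.7 in WTL + JSH23. Both LPS groups were above both groups without LPS, and WT + JSH23 was above WT. The LPS rise was 1.90 ± 0.09 without JSH-23 and 1.199 ± 0.08 after it, with an interaction of -0.70 ± 0.12 (adjusted p = 0.00039). The interaction missed the threshold on the TPM scale, at -0.29 with limma on log2(TPM + 1) (adjusted p = 0.132). Slc5a3 shares its locus with Mrps6, and reads of overlapping genes may not be separated. Slc41a1, a magnesium transporter, had CPM of 47.03, 44.8 and 47.1 in WT, 120.3, 122 and 112 in WTL, 48.2, 52.1 and 49.7 in WT + JSH23 and 107, 113 and 112 in WTL + JSH23. All LPS libraries were above all others, and the LPS change was 1.35 ± 0.05 without and 1.15 ± 0.05 with JSH-23. Slc16a10, which carries aromatic amino acids, changed by 1.21 ± 0.06 and 1.36 ± 0.06, and JSH-23 without LPS changed it by -0.58 ± 0.06. The remaining calls upward were Slc26a10, Slc25a25 (mitochondrial ATP-magnesium and phosphate carrier), Slc9a3r1 (a scaffold protein), Slc25a37 (mitoferrin-1, mitochondrial iron import) and Slc15a2 (peptide uptake), between 1.06 and 1.40. For the 11 genes raised by LPS the median log2 change was 1.35 without and 1.199 after JSH-23, and 8 of the 11 were called after JSH-23. These medians and the count start from genes picked on the WT and WTL libraries, and the same was not counted for all genes raised by LPS.

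**Figure D2:**
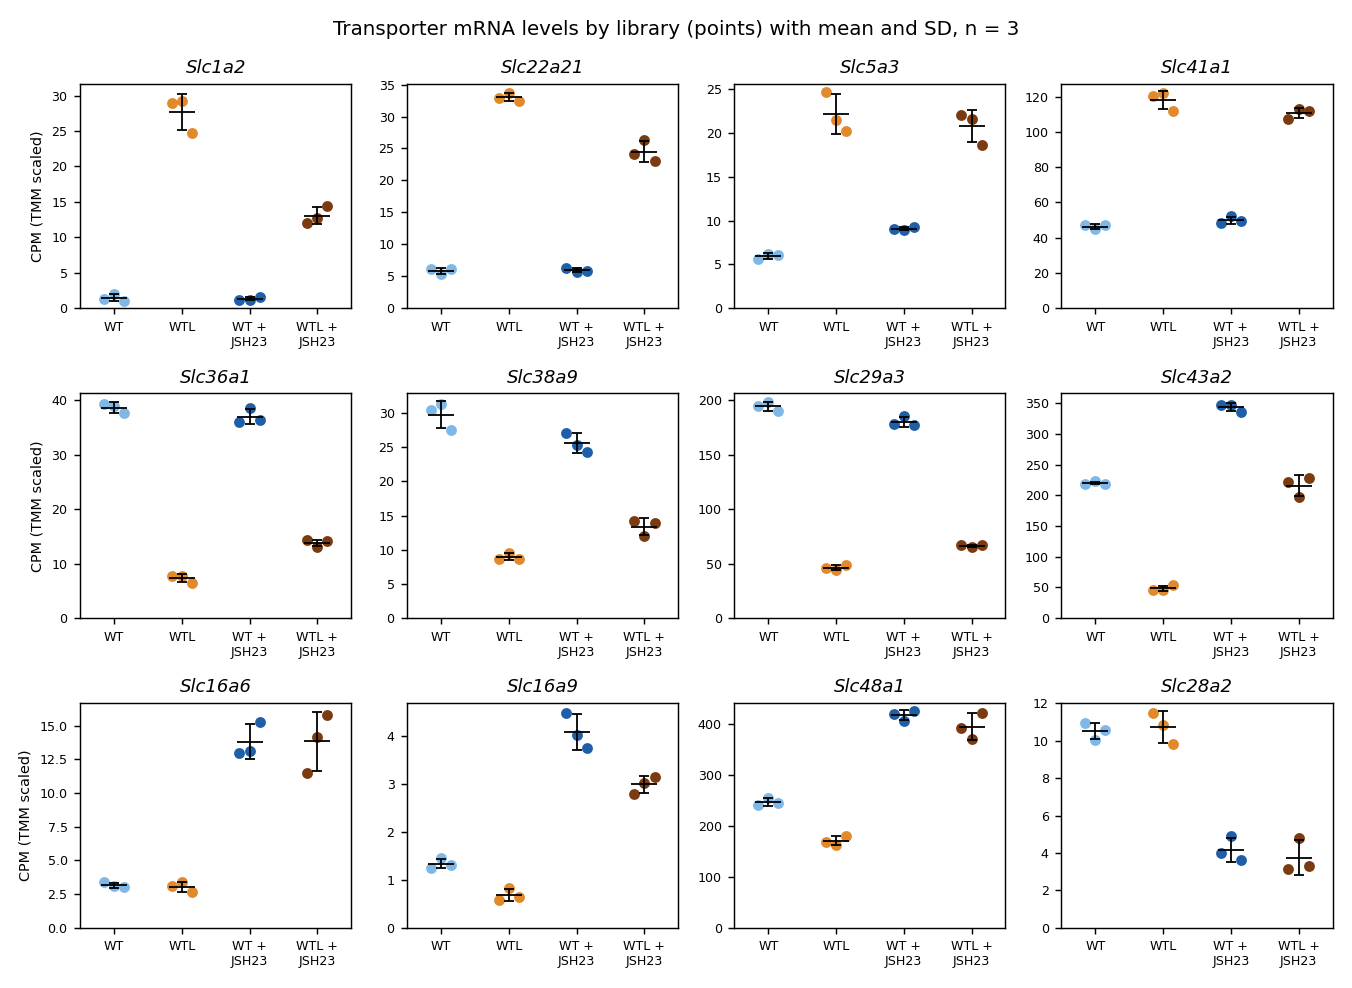
CPM by library of 12 Slc genes in the 4 groups; points are single libraries and bars are mean and SD of 3 libraries, with axes starting at 0. The first row shows genes that rose with LPS, the second genes that fell, and the third genes that differed with JSH-23.

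The 20 falls were spread over amino acid, ion, sugar, nucleoside, mitochondrial and other groups, and they included transporters of lysosomes. The deepest was Slc36a1, which exports small amino acids from lysosomes together with protons. Its CPM were 39.4, 38.98 and 37.6 in WT, 7.67, 7.73 and 6.40 in WTL, 36.05, 38.6 and 36.3 in WT + JSH23 and 14.2, 13.1 and 14.04 in WTL + JSH23. Groups with LPS lay below groups without it, and WTL lay below WTL + JSH23. The LPS change was -2.40 ± 0.07 (adjusted p = 7.9e-18) without and -1.42 ± 0.06 (adjusted p = 2.1e-14) after JSH-23, with an interaction of 0.98 ± 0.09 (adjusted p = 4.6e-07). Its neighbour 19273 bases away, Slc36a2, a related amino acid transporter at a mean of 1.91 TPM, fell with a log2 change of -1.01 ± 0.16, a call that did not hold without WT replicate 5, WT replicate 6 or WTL replicate 5 (0.937 to 0.997 on the log2 scale in size).

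Slc43a2, a facilitative transporter of large neutral amino acids, had CPM of 219, 223 and 219 in WT, 45.2, 45.6 and 53.7 in WTL, 348, 348 and 336 in WT + JSH23 and 222, 197 and 229 in WTL + JSH23. WTL was far below all other groups, and WT + JSH23 was above them, while WT and WTL + JSH23 overlapped. LPS changed it by -2.20 ± 0.06 without and -0.67 ± 0.05 after JSH-23. Its interaction, 1.53 ± 0.08 (adjusted p = 7.2e-11), was the largest of the 171. It had fractional counts in all 12 libraries. Slc1a4, a neutral amino acid exchanger at a low level, had CPM of 3.79, 3.33 and 3.04 in WT, 0.581, 0.700 and 1.01 in WTL, 4.76, 4.67 and 5.68 in WT + JSH23 and 2.76, 2.83 and 3.33 in WTL + JSH23. WTL was lowest in all 3 libraries, and the changes were -2.17 ± 0.20 and -0.77 ± 0.15, with an interaction of 1.40 ± 0.26 (adjusted p = 0.00056) that missed the threshold with limma on log2(TPM + 1) (0.38, adjusted p = 0.0718). Slc38a9, the lysosomal arginine transporter and sensor, had CPM of 30.5, 31.3 and 27.6 in WT, 8.68, 9.53 and 8.70 in WTL, 27.1, 25.4 and 24.3 in WT + JSH23 and 14.2, 11.9 and 13.9 in WTL + JSH23. Groups without LPS lay above groups with it, and the changes were -1.73 ± 0.08 and -0.94 ± 0.07.

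Amino acid transporters as a group held 22 genes, of which 5 fell and 2 rose with LPS and 10 had a positive and 1 a negative interaction, beside 9.09%, 7.36%, 9.54% and 8.44% of all genes tested in that order. Slc38a2, which takes up small neutral amino acids, had CPM of 308, 298 and 303 in WT, 233, 221 and 227 in WTL, 305, 299 and 293 in WT + JSH23 and 330.2, 325 and 349 in WTL + JSH23. WTL was the lowest group and WTL + JSH23 the highest, with LPS changes of -0.42 ± 0.04 and 0.16 ± 0.04. On log2(TPM + 1) the second change was reversed, at -0.04. Slc1a5, a glutamine transporter, changed by -0.64 ± 0.07 and -0.31 ± 0.06, and its interaction of 0.33 ± 0.09 (adjusted p = 0.017) was lost without WTL replicate 4 or WT + JSH23 replicate 1, with adjusted p up to 0.064. The exchanger subunits Slc3a2 and Slc7a5 (LAT1, large neutral amino acids) were higher with both agents. Slc3a2 had CPM of 353, 365 and 369 in WT, 549, 567 and 549 in WTL, 586, 563 and 642 in WT + JSH23 and 751, 722 and 928 in WTL + JSH23, and changed by 0.62 ± 0.07 with LPS and 0.72 ± 0.07 with JSH-23. Slc7a1, a cationic amino acid transporter, had CPM of 25.8, 27.8 and 27.4 in WT, 45.02, 43.3 and 46.5 in WTL, 58.4, 67.9 and 62.6 in WT + JSH23 and 106, 112 and 132 in WTL + JSH23. Each agent raised it, with JSH-23 called both with and without LPS (1.38 ± 0.07 and 1.22 ± 0.07).

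Nucleosides form a small group of 5 genes. Slc29a3 (ENT3), which exports nucleosides from lysosomes, had CPM of 195, 198 and 190.0 in WT, 45.8, 43.9 and 48.7 in WTL, 179, 186 and 177 in WT + JSH23 and 66.9, 65.6 and 66.7 in WTL + JSH23. The LPS groups were below the others without overlap, and the changes were -2.08 ± 0.04 (adjusted p = 4.8e-20) and -1.44 ± 0.04 (adjusted p = 2.4e-17), with an interaction of 0.64 ± 0.06 (adjusted p = 2.9e-07). Slc28a2 (CNT2), a concentrative nucleoside transporter, had CPM of 10.9, 10.1 and 10.6 in WT, 11.5, 10.8 and 9.81 in WTL, 3.99, 4.88 and 3.64 in WT + JSH23 and 3.12, 4.81 and 3.33 in WTL + JSH23. It was lower in all 6 libraries with JSH-23, with changes of -1.34 ± 0.12 without and -1.52 ± 0.13 with LPS, and LPS gave 0.03 ± 0.11 (adjusted p = 0.83).

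The 15 genes assigned to lysosomes or endosomes from general knowledge showed 0 rises and 6 falls with LPS (Slc36a1, Slc29a3, Slc38a9, Slc46a3, Slc12a9 and Slc17a5, the last exporting sialic acid), counting only 2-fold calls by edgeR, beside 7.36% and 9.09% of all genes tested. At an adjusted p under 0.05 without the fold limit, 3 were higher and 10 lower, beside 52 and 83 of all 171 Slc genes. The share of all genes tested at that limit was not counted. Their median log2 change was -0.60 with LPS and -0.39 after JSH-23, beside -0.05 and -0.02 over all genes tested. JSH-23 under LPS gave a median of 0.53, beside 0.02. The interaction was positive for 7 and negative for 1, beside 9.54% and 8.44% of all genes tested. The 3 higher genes were Slc15a3 at 0.91 ± 0.06 and Slc2a6 at 0.92 ± 0.04 with LPS, both just short of 2-fold and both among the most abundant of all, and the zinc transporter Slc30a4 at 0.45 ± 0.05, which missed the threshold on the TPM scale (0.12 with limma on log2(TPM + 1), adjusted p = 0.0943). Slc2a6 was lower with JSH-23 without LPS, with a change of -0.61 ± 0.04, and its CPM were 568, 569 and 576 in WT, 1048, 1103 and 1099 in WTL, 359, 379 and 383 in WT + JSH23 and 718, 734 and 779.6 in WTL + JSH23. Its 4 groups did not overlap. By comparison, the 37 mitochondrial carriers had 2 rises and 2 falls with LPS and a median of -0.20, and the 34 genes of the Golgi or endoplasmic reticulum had 0 rises and 2 falls and a median of -0.26.

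**Figure D3:**
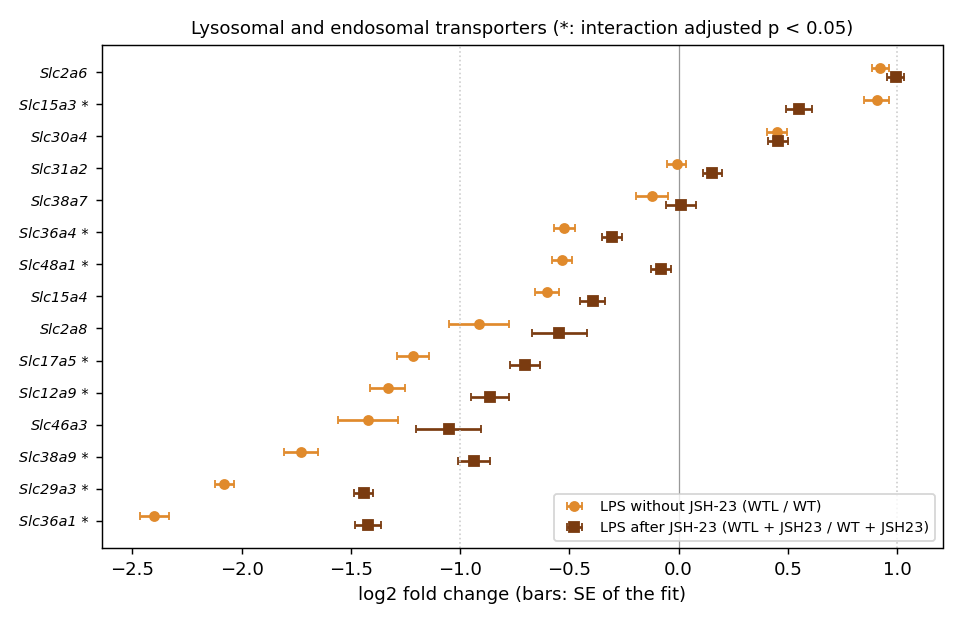
Log2 fold change with LPS of the 15 lysosomal and endosomal Slc genes without (circles) and after (squares) JSH-23, with bars for the SE of the fit and an asterisk where the interaction passed an adjusted p of 0.05. Slc36a1, at -2.40 and -1.42, lies at the bottom.

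**Figure D4:**
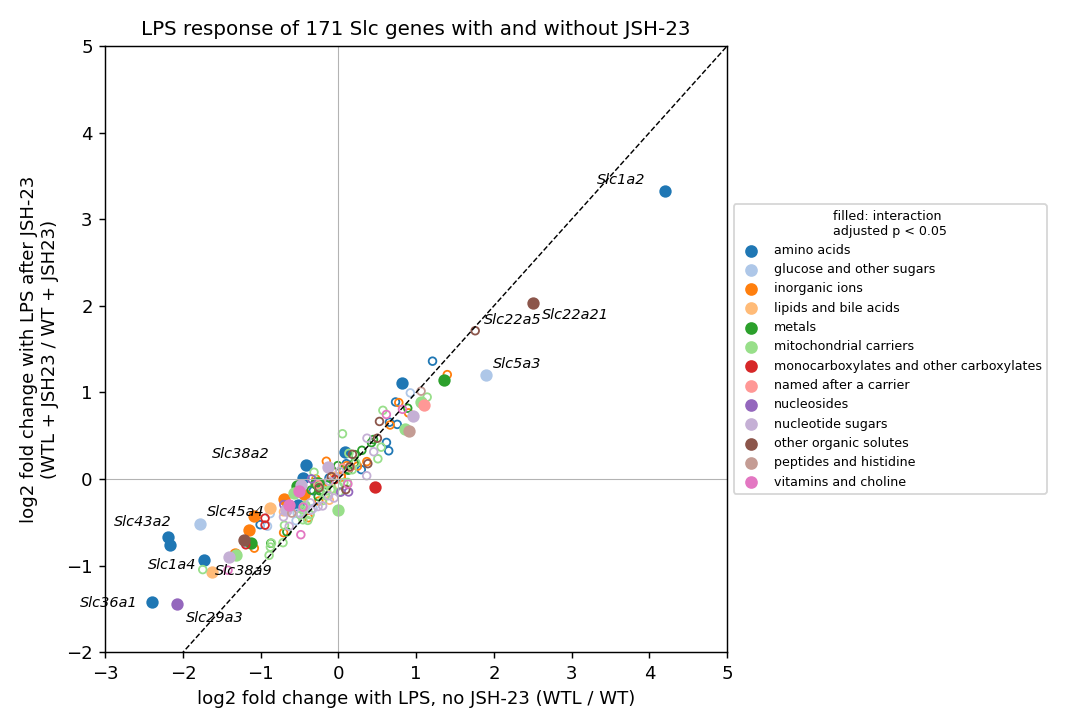
LPS change after JSH-23 against LPS change without it for the 171 Slc genes, coloured by substrate, with filled points where the interaction passed and a dashed line of equal change. Of the 20 genes lowered by LPS, all 20 had the same sign after JSH-23, 5 were called there, and the median was -1.37 without and -0.78 after JSH-23. These counts and medians start from genes picked on the WT and WTL libraries, and the same was not counted for all genes lowered by LPS.

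Slc45a4, assigned to sugars, fell with LPS and with JSH-23 alone, with changes of -1.78 ± 0.08 and -1.02 ± 0.07. Slc37a2, a sugar phosphate exchanger of the endoplasmic reticulum, had CPM of 60.03, 59.98 and 59.5 in WT, 27.5, 23.96 and 27.5 in WTL, 93.4, 98.4 and 94.7 in WT + JSH23 and 59.4, 55.3 and 59.03 in WTL + JSH23. WTL was lowest and WT + JSH23 highest, and the libraries with both agents lay just below WT. LPS changed it by -1.19 ± 0.05 and JSH-23 under LPS by 1.14 ± 0.05. Among the other falls, Slc27a1 (fatty acid uptake) gave -1.63, Slc25a42 (mitochondrial coenzyme A) -1.75, Slc8b1 (mitochondrial sodium-calcium exchange) -1.15 and Slc12a7 (potassium-chloride cotransport) -1.08. Slc25a45 and Slc16a7 complete the 20 with -1.32 and -1.19.

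Among the remaining groups, LPS raised 1 and lowered 4 of 22 inorganic ion transporters, with Slc26a10 up and Slc12a9, Slc8b1, Slc12a7 and Slc4a3 (chloride-bicarbonate exchange) down. It raised 0 and lowered 1 of 19 nucleotide sugar transporters, which feed glycosylation in the Golgi (Slc35c2, -1.41 ± 0.09), counting 2-fold calls by edgeR. At an adjusted p alone 4 of the 19 were higher and 11 lower, beside 52 and 83 of all 171 Slc genes, and the share of all genes tested was not counted. Of 8 vitamin and choline transporters 1 fell (Slc46a3, -1.42 ± 0.14). Over all genes tested, LPS raised 7.36% and lowered 9.09% by these 2-fold calls.

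Metals made up 20 genes, of which 1 rose (Slc41a1) and 1 fell (Slc39a10, zinc uptake, -1.12 ± 0.09) with LPS, beside 7.36% and 9.09% of all genes tested. Slc48a1 (HRG1), which moves heme out of endosomes and lysosomes, had CPM of 241, 255 and 245 in WT, 169, 163 and 181 in WTL, 419.9, 406 and 426 in WT + JSH23 and 391, 370.1 and 422 in WTL + JSH23. Both JSH-23 groups were above both others, and WTL was below WT. JSH-23 raised it by 1.21 ± 0.05 under LPS (adjusted p = 1.5e-14) and by 0.76 ± 0.05 without it. Slc48a1 overlaps Hdac7. Slc39a4, a zinc importer, was raised by JSH-23 under LPS by 1.13 ± 0.06, and its LPS change without JSH-23 was -0.29. The copper transporters Slc31a1 and Slc31a2 had LPS changes of 0.42 and -0.01, and the former missed the threshold on log2(TPM + 1), at 0.09 (limma, adjusted p = 0.212). The zinc transporter Slc39a1 had an LPS change of 0.30, which turned to -0.03 on log2(TPM + 1).

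The largest rises with JSH-23 alone were of Slc16a6 and Slc16a9 in the monocarboxylate group of 5 genes, and under LPS they came after Slc43a2 (2.17 ± 0.06). Slc16a6 had CPM of 3.36, 3.13 and 3.001 in WT, 3.10, 3.40 and 2.62 in WTL, 12.999, 13.1 and 15.3 in WT + JSH23 and 11.5, 14.1 and 15.8 in WTL + JSH23. The 6 libraries with JSH-23 lay above the 6 without it, with changes of 2.16 ± 0.13 under LPS and 2.12 ± 0.12 without it. Slc16a6 had fractional counts in 12 libraries and overlaps Arsg and Amz2. Slc16a9 had CPM of 1.25, 1.45 and 1.31 in WT, 0.581, 0.833 and 0.645 in WTL, 4.49, 4.02 and 3.74 in WT + JSH23 and 2.80, 3.02 and 3.15 in WTL + JSH23. It rose by 2.10 ± 0.19 and 1.60 ± 0.16, from a level under 1.5 CPM. Slc16a1 (MCT1, lactate) rose by 1.00 ± 0.13 with JSH-23 alone, while Slc16a7 (MCT2) fell, with a change of -1.06 ± 0.20. With limma on log2(TPM + 0.1) the falls of Slc16a7 with JSH-23 alone and with LPS missed the threshold (adjusted p = 0.126 and 0.107), as they did on log2(TPM + 1). The creatine transporter Slc6a8 rose by 1.01 ± 0.08 without and 1.11 ± 0.08 with LPS, and the riboflavin transporter Slc52a3 by 1.17 ± 0.06 under LPS. Under LPS, Slc6a8 (0.982), Slc8b1 (0.950) and Slc4a3 (0.949) no longer passed 2-fold without WTL + JSH23 replicate 3, the library that stands apart, and JSH-23 then raised 10 and lowered 4 genes. Slc25a22, a mitochondrial glutamate carrier, had CPM of 133, 135 and 133 in WT, 133, 133 and 134 in WTL, 80.4, 89.6 and 84.1 in WT + JSH23 and 62.9, 68.3 and 66.5 in WTL + JSH23. It was lower in all 6 libraries with JSH-23, with changes of -1.02 ± 0.04 under LPS and -0.66 ± 0.04 without it. The amino acid transporter gene Slc6a20a was lower with JSH-23 under LPS, and its CPM were 11.6, 13.1 and 11.8 in WT, 18.3, 19.1 and 19.8 in WTL, 6.95, 8.03 and 5.55 in WT + JSH23 and 9.67, 8.63 and 7.22 in WTL + JSH23. Its change was -1.15 ± 0.10 (adjusted p = 6.1e-09). The remaining rises with JSH-23 alone were Slc35e4 at 1.08 ± 0.12 and Slc25a33, a mitochondrial pyrimidine nucleotide carrier, at 1.01 ± 0.11.

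Genes outside the Slc name that belong to the same biology were counted from lists chosen from general knowledge. Of 36 genes of lysosomal amino acid sensing, 35 were tested. With LPS, 1 rose (Wdr59, 1.46) and 3 fell, beside 7.36% and 9.09% of all genes tested. The falls were of Tfeb (-1.88), the transcription factor of lysosome genes, and the leucine sensor family members Sesn1 (-1.86) and Sesn3 (-1.55). The interaction of the 35 was positive for 10 and negative for 3, beside 9.54% and 8.44% of all genes tested. Rragd, a Rag GTPase, rose with JSH-23 by 1.23 under LPS and 1.21 without. Of 30 carriers without an Slc symbol, 27 were tested, and 4 rose and 3 fell with LPS (7.36% and 9.09% of all genes tested), the latter being Mfsd12, Sfxn3 and Spns2.

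Promoter sequences from RefSeq (GRCm38.p6) were found for 132 of the 171 genes, and the 250 bases before each start were searched on both strands for 6 motifs. The E-box CACGTG, the core of the sites that Tfeb and related factors bind, was present in 15.9% of the 132 genes (21) and in 6.86% of all 27025 genes with a promoter. A gene counted when any of its promoters matched, and the 132 genes had 179 promoters and the 27025 genes 32851. For 131 of the 179, the bases just after the start were found near the beginning of a GENCODE M21 transcript of the gene. The 27025 were not limited to expressed genes, so the 2 sets are unlike, and no difference in motif share was tested. Among genes lowered by LPS it was present in 4 of 16 and among lysosomal or endosomal genes in 3 of 13. The NF-κB motif was present in 11.4% of the 132 and 8.23% of all, in 0 of the 9 genes raised by LPS with a promoter and in 2 of the 16 lowered. The antioxidant response element (TGACNNNGC) was in 18.2% against 11.5%, the ATF4 element (TGATGNAA) in 2.27% against 3.91%, the metal response element (TGCNCNC) in 55.3% against 47.2% and the longer CLEAR motif, which contains the E-box, in 0 against 0.27%. The sequences are shown for the 4 LPS-lowered genes with the E-box, in capitals, because these carry the match in the set named above. They are written 5′ to 3′ in the direction of transcription.
Slc36a1, chr11:55204090-55204339, plus strand: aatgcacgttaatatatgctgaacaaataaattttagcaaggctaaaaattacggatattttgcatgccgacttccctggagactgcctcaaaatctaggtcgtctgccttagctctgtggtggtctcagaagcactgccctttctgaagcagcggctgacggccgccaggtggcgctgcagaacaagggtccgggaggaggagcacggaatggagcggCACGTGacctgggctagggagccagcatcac
Slc12a9, chr5:137333583-137333832, minus strand: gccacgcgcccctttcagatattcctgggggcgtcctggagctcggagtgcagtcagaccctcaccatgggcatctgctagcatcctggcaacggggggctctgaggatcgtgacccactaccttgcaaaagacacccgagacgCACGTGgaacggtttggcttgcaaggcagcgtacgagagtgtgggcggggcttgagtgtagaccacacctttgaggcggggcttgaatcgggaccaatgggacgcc
Slc27a1, chr8:71570344-71570593, plus strand: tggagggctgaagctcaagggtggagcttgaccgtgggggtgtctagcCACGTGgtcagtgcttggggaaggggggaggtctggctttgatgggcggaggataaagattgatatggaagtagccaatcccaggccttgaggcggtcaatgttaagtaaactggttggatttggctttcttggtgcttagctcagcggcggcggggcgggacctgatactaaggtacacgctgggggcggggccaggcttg
Slc12a7, chr13:73763447-73763696, plus strand: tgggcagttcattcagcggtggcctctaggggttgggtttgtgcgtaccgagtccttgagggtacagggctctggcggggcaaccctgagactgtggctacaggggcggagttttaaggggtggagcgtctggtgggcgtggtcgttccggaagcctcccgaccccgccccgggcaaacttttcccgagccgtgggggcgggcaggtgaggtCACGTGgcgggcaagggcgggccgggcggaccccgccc
In these the E-box began 31, 106, 202 and 38 bases before the start, in that order. The windows of Slc27a1 and Slc12a7 lie inside the annotated genes, which begin at 71568882 and 73733094. Which starts these cells used was not tested. A match is a description of the letters and no evidence of binding.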

How the data were processed

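RNA-seq of 12 BMDC libraries was analysed. The authors trimmed reads with Trim Galore, aligned them to mm10 with STAR (2.6.0c per the submitters' notes) and deposited RSEM expected counts and TPM per gene; the GENCODE release and strand setting were not given in the sources used here, and labels and methods name different RNA selection kits. Gene types came from GENCODE M21.

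Expected counts were rounded, filtered with filterByExpr (14357 genes), scaled by TMM and tested with edgeR 4.0.16 in R 4.3.3 (quasi-likelihood, 12 libraries, Benjamini-Hochberg). Alternatives used DESeq2 1.42.0, limma 3.58.1, other scalings, filters and libraries left out. SE is the absolute log2 change over the square root of F. CPM are TMM scaled. Scripts were tested on simulated data.

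Among the 171 members, counts of 47 were fractional in some library and 30 overlap another protein-coding gene. Members and lists were chosen with earlier results of these data known. Named were 22 listed members, the 5 largest rises and falls per comparison, the 4 largest interactions each way and the most abundant per substrate group; others were named after their values were seen, and the group of genes named after a carrier was split off then. The series calls the replicates biological.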

Additional observations from a re-analysis of the deposited data

Results flagged for a closer look

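Of 48 named Slc genes, 20 had an LPS response that differed with and without JSH-23, by edgeR's interaction term at an adjusted p under 0.05 over all genes tested (values are the LPS log2 change after JSH-23 minus that without it). Some of the 48 were named for their large interactions or changes, so this count is not a rate. Among all 171 Slc genes the interaction was positive for 33 (19.3%) and negative for 11 (6.43%), against 9.54% and 8.44% of all genes tested. With DESeq2 it was positive for 28 and negative for 15, and the share of all genes was not counted for that fit. The interaction was positive for Slc43a2 (1.53), Slc1a4 (1.40), Slc45a4 (1.26), Slc36a1 (0.98), Slc29a3 (0.64), Slc38a2 (0.58), Slc27a1 (0.55), Slc38a1 (0.47), Slc37a2 (0.47), Slc48a1 (0.45), Slc1a5 (0.33) and Slc7a8 (0.24). It was negative for Slc1a2 (-0.88), Slc5a3 (-0.70), Slc16a1 (-0.55), Slc22a21 (-0.47), Slc25a22 (-0.36), Slc15a3 (-0.35), Slc9a3r1 (-0.26) and Slc25a37 (-0.17). The result for Slc16a1 missed the threshold in 12 of 20 alternatives and that for Slc25a37 in 15 of 20, 10 of them in each case fits that left out 1 library, where the adjusted p reached 0.179 and 0.112. With limma on log2(TPM + 1) or log2(TPM + 0.1), all 8 negative results missed the threshold in at least 1 of these fits, with adjusted p up to 0.143 for Slc1a2, 0.132 for Slc5a3, 0.320 for Slc16a1, 0.201 for Slc22a21, 0.0777 for Slc25a22, 0.111 for Slc15a3, 0.278 for Slc9a3r1 and 0.688 for Slc25a37. Of the 12 positive results, Slc1a4 (0.0718) and Slc27a1 (0.0877) missed it there. The median interaction of all genes was itself higher on log2(TPM + 1), at 0.11 beside 0.03 in edgeR. Leaving out 1 library lost the threshold for Slc1a2 and Slc9a3r1 in 3 fits each and for Slc1a5 in 2.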

How the results depend on the processing

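Member counts stayed within 1.5 times of the main value under most alternatives. Exceptions were an adjusted p alone, which called 135 members with LPS, 125 with LPS after JSH-23, then 99 (under LPS) and 88 (without LPS) for JSH-23, a 2-fold limit added to the interaction (3), limma on log2(TPM + 1) with 9 for LPS after JSH-23 and 4 for JSH-23 without LPS, limma on log2(TPM + 0.1) with 6 for JSH-23 without LPS, and a mean TPM of 5 or more with 9, 10 and 5 for LPS after JSH-23, JSH-23 under LPS and JSH-23 without LPS. For the LPS and JSH-23 comparisons, the shares of all genes tested at an adjusted p alone were not counted. Leaving out 1 library gave 28 to 33, 12 to 15, 14 to 17, 7 to 11 and 35 to 48 calls, in the order LPS, LPS after JSH-23, JSH-23 under LPS, JSH-23 without LPS and interaction. Calls near 2-fold were lost this way for Slc36a2 (without WT replicate 5, WT replicate 6 or WTL replicate 5), Slc15a2 (WT replicate 6) and Slc4a3 (WT replicate 6 or WTL replicate 4) with LPS, for Slc25a42 (WT + JSH23 replicate 1 or WTL + JSH23 replicate 2), Slc46a3 (WT + JSH23 replicate 1 or WTL + JSH23 replicate 3) and Slc15a2 (WT + JSH23 replicate 3 or WTL + JSH23 replicate 2) with LPS after JSH-23, for Slc4a3 and Slc8b1 (WTL replicate 4 or WTL + JSH23 replicate 3), Slc6a8 (WTL + JSH23 replicate 3) and Slc25a22 (WTL + JSH23 replicate 1) with JSH-23 under LPS, and for Slc16a1, Slc16a7, Slc25a33, Slc45a4 and Slc6a8 with JSH-23 alone (WT replicate 4 or 5, WT + JSH23 replicate 1 or 3), with log2 changes of 0.856 to 0.998 in size. Of the 44 interactions, 14 missed the threshold without some library, with adjusted p up to 0.179, among them Slc36a4, Slc39a4, Slc39a9, Slc39a10 and Slc41a1. Correlations of deviations were 0.0142 to 0.0614 between libraries of the same replicate number and -0.0564 to 0.0355 between libraries of different numbers. These do not settle whether the numbers mark pairs, and the main fit treated the libraries as unpaired. The fit with the replicate block gave 31, 14 and 50 calls for both LPS comparisons and the interaction, the last being 34 positive and 16 negative. On log2(TPM + 1) and log2(TPM + 0.1) the direction reversed for Slc15a4 with JSH-23 without LPS (0.236 and 0.239), for LPS after JSH-23 in Slc31a2 (-0.0482 and -0.0485) and Slc38a2 (-0.0377 and -0.0380), and for Slc39a1 with LPS (-0.0329 and -0.0331); the cause was not tested. Of 2658 alternatives of named genes, 2539 kept direction and side of the threshold, 111 lost the threshold and 8 reversed. The threshold here was the adjusted p alone, so results that no longer passed 2-fold counted as kept. Many genes were named for large changes, and some fits left out libraries outside the comparison. These counts are therefore no rate of stability.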
